A study of Mus musculus with 6 samples.

Results

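The heavy chain (IgH) clonotypes described here carried a V gene of the small IGHV families 4, 7, 11, 12 and 13. They were chosen by the name of the V gene with the best alignment in each clonotype, and not by any measured level. They numbered 225 of 7794 IgH clonotypes in the iB-μMT library and 145 of 6781 in the B6 library, or 370 of 14575 in both together. A clonotype is a distinct CDR3 nucleotide sequence with its V, D, J and C genes, as assembled from the reads. Of the 105 IGHV genes found in the libraries, 9 belonged to these families (IGHV4-1, IGHV7-1, IGHV7-2, IGHV7-3, IGHV7-4, IGHV11-1, IGHV11-2, IGHV12-3 and IGHV13-2).

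The study asked whether B cells regenerated from pluripotent stem cells carry a diverse set of B cell receptors. Naïve follicular B cells (FO B cells, IgD++IgM+CD23++CD21+) were sorted from the spleen of 1 iB-μMT mouse and of 1 C57BL/6 (B6) mouse. The iB-μMT mouse was a B cell-deficient μMT animal (B6.129S2-Ighmtm1Cgn/J), aged between 8 and 10 weeks, which was irradiated with 5 Gy and studied at week 4 after it received induced hematopoietic progenitors. The progenitors came from 1 embryonic stem cell line of C57BL/6 background (iR9X2), which carries a GFP reporter in Hipp11 and a doxycycline-inducible cassette of Runx1, Hoxa9 and Lhx2 in Rosa26, and doxycycline was given in the drinking water. The B6 mouse was the control, and its age is not given in the sources used here. There was 1 library per mouse, named here the iB-μMT library and the B6 library, with 909806 and 1383617 IgH reads, respectively. Each test below therefore compares 2 libraries and not 2 conditions, no difference has a replicate check, and the source of the B cells cannot be told apart from the animal, its age, its treatment or its library. No molecular identifiers were used, so that reads are not independent molecules and the intervals, which count clonotypes, cover counting error only.

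The heavy chain V domain is assembled in developing B cells by joining a V, a D and a J segment, and the enzyme TdT adds nucleotides at the joints. CDR3, which spans the joints, is the most variable part of the receptor. IGHV11 and IGHV12 are V families typical of B-1 cells, innate-like B cells, where they often encode antibodies against phosphatidylcholine. In IGHV12 these antibodies share a CDR3 of fixed length with a glycine at a fixed place, known as 10/G4. IGHV7 is the S107 family, and IGHV7-1 joined to IGHD1-1 and IGHJ1 encodes the phosphorylcholine-binding T15 antibodies, which are made early in life without added nucleotides. IGHV4 and IGHV13 are families with few functional genes in the mouse.

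The members differ in the bases that V itself gives to CDR3. The stretches run 5′ to 3′ from the codon of the first cysteine, and were read from clonotypes in which no base of the V end was lost.
IGHV4-1: tgtgcaaga
IGHV7-1: tgtgcaagagatgca
IGHV7-3: tgtgcaagatata
IGHV11-1 and IGHV11-2: tgtatgagata
IGHV12-3: tgtgcagga
IGHV13-2: tgtagtaga
IGHV7-1 brings the longest of these ends, 15 bases, with a codon for aspartate. An aspartate stood at position 4 of CDR3 in 29 of 32 IGHV7-1 clonotypes of the iB-μMT library and in 6 of 9 of the B6 library. IGHV7-3 brings a tyrosine at the same place, which was found in 36 of 70 and 32 of 58 clonotypes, respectively. The ends of IGHV11-1 and IGHV11-2 were the same, so the V end in CDR3 cannot tell them apart.

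In the RefSeq annotation of GRCm38.p6, the same assembly as the mm10 named in the labels, all 9 genes lie on chromosome 12, between the 20th and the 42nd of the 105 genes found, counted from the D segments. IGHV7-1 is the nearest, at chr12:113896408-113896946, or 370 kb from the last D segment. IGHV7-2 (chr12:113912025-113912483), IGHV4-1 (chr12:113948284-113948577), IGHV11-1 (chr12:113981879-113982174) and IGHV11-2 (chr12:114048241-114048704) follow. Then come IGHV7-3 (chr12:114153180-114153644), IGHV7-4 (chr12:114222788-114223254), IGHV13-2 (chr12:114357761-114358060) and IGHV12-3 (chr12:114366526-114366819), the last at 840 kb. RefSeq lists 13 genes of these families, and the other 4 were not found in either library (the pseudogenes IGHV4-2, IGHV12-1 and IGHV12-2, and the V segment IGHV13-1). IGHV7-1 and IGHV7-3 are typed there as pseudogenes of the V segment, although both were found with open CDR3 reading frames in each library.

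Together, the 5 families made up 2.89% of IgH clonotypes in the iB-μMT library (exact 95% interval 2.53 to 3.28%), against 2.14% in the B6 library (1.81 to 2.51%). The difference was 0.749 percentage points (95% interval 0.238 to 1.26; two-sided Fisher's exact test, p = 0.00432). By reads, their shares were 2.31% (21021 reads) and 1.13% (15592 reads). The difference rested in part on IGHV7-1, without which it was 0.478 points (two-sided Fisher's exact test, p = 0.0573). The shares of the large families differed too. IGHV1 took 29.8% and 59.3% of the clonotypes, IGHV5 31.6% and 12.8%, and IGHV2 8.31% and 2.33%. Whether the difference of the 5 families depends on these shares was not tested. Among the clonotypes outside IGHV1, IGHV2 and IGHV5, a denominator chosen after the values were seen, the 5 families held 9.54% in the iB-μMT library and 8.37% in the B6 library (difference 1.17 points, 95% interval -0.626 to 2.91; two-sided Fisher's exact test, p = 0.205).

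A V gene was tested where it had 20 clonotypes or more over both mice, and was called where its p, adjusted by Benjamini-Hochberg over the 77 genes tested, was under 0.05. The calls numbered 48 (62.3%), with 26.0% of the tested genes higher in the iB-μMT library and 36.4% lower. Of the members, 4 genes were frequent enough to be tested. IGHV7-1 and IGHV13-2 were called higher in the iB-μMT library, and IGHV4-1 and IGHV7-3 were not called. The 2 calls among 4 genes are too few to set against the background. By family, 5 of 15 were called (33.3%), none of them a member family, and the smallest adjusted p of the 5 was 0.0652, for IGHV13. Without adjustment, the same test gave a p under 0.05 for 1 of the 5 families (IGHV13, Fisher's exact test, p = 0.0286). Of the other families, IGHV1, IGHV2, IGHV3, IGHV5, IGHV8 and IGHV9 were under 0.05 in this way, so that IGHV13 does not stand out.

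**Figure D1:**
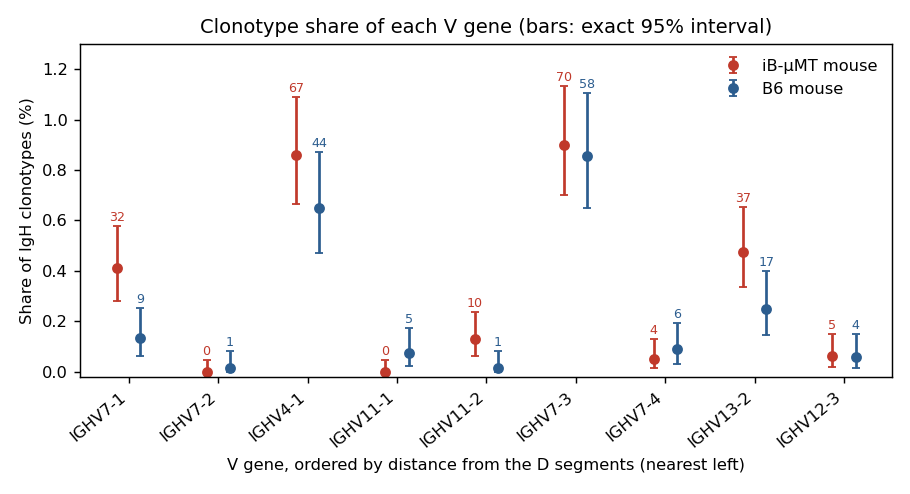
Share of IgH clonotypes (%) of each V gene in the iB-μMT library (red) and the B6 library (blue), with exact 95% intervals and the number of clonotypes above each bar, ordered by distance from the D segments. The intervals are apart only for IGHV7-1 (32 and 9 clonotypes), and they overlap for IGHV13-2 (37 and 17), IGHV11-2 (10 and 1), IGHV4-1 (67 and 44), IGHV7-3 (70 and 58) and the rarer genes.

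IGHV7-3 and IGHV4-1 were the most frequent members in both mice. IGHV7-3 was found in 70 clonotypes of the iB-μMT library (0.898%, exact 95% interval 0.701 to 1.13%) and in 58 of the B6 library (0.855%, 0.650 to 1.10%). Its difference of 0.0428 points was small against its interval (-0.268 to 0.347; two-sided Fisher's exact test, adjusted p = 0.869). IGHV4-1 was found in 67 (0.860%) and 44 (0.649%) clonotypes, with a difference of 0.211 points and an interval that included 0 (-0.0756 to 0.494; same exact test, adjusted p = 0.226). Thus the order of both genes was the same in the 2 mice, and neighbours in that order did not differ beyond their intervals.

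IGHV7-1, the gene of the T15 antibodies, had 32 clonotypes in the iB-μMT library (0.411%, 0.281 to 0.579%) and 9 in the B6 library (0.133%, 0.0607 to 0.252%). The ratio of the shares was 3.09 and the difference 0.278 points (0.109 to 0.458; two-sided Fisher's exact test, adjusted p = 0.00309). By reads its shares were 0.308% and 0.0894%. Among the clonotypes outside IGHV1, IGHV2 and IGHV5 its shares were 1.36% and 0.520%, a ratio of 2.61, and the gene was no longer called on this smaller number of clonotypes (same exact test, adjusted p = 0.0557). IGHV13-2 had 37 (0.475%, 0.334 to 0.654%) and 17 (0.251%, 0.146 to 0.401%) clonotypes, a ratio of 1.89 (same exact test, adjusted p = 0.0459). In the same exact test, its call was lost with productive clonotypes only (0.209 points in place of 0.224, adjusted p = 0.0822) and, at an unchanged difference, with every IGHV gene tested (adjusted p = 0.0566). Outside the 3 large families its ratio was 1.60 (same exact test, adjusted p = 0.279), whereas clonotypes with at least 5 reads gave 0.315 points (adjusted p = 0.00453).

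IGHV11 was rare in both mice, with 10 clonotypes in the iB-μMT library (0.128%) and 6 in the B6 library (0.0885%), but the 2 genes of the family lay apart. All 10 in the iB-μMT library were IGHV11-2, against 1 in the B6 library (odds ratio 8.71, 95% interval 1.24 to 378). The other 5 in the B6 library were IGHV11-1, of which none was found in the iB-μMT library, where 3 clonotypes would be 0.0385%. The exact 95% intervals of the IGHV11-1 share overlapped, 0.00 to 0.0473% in the iB-μMT library and 0.0239 to 0.172% in the B6 library, so no least ratio is given. The IGHV11-1 clonotypes of the B6 library with 7 and 6 reads had a stop codon. Both genes had too few clonotypes for the main test. With all 105 genes tested, of which 48.6% were called, Fisher's exact test gave an adjusted p of 0.0296 for IGHV11-2 and 0.0448 for IGHV11-1. Each of the 16 IGHV11 clonotypes had the other IGHV11 gene as its second hit, and the best hit led by a score of 3 to 84 in the iB-μMT library (median 35.6) and, for IGHV11-1, by 5.10 to 61.3 in the B6 library (median 44.1). Whether the 2 genes were told apart correctly at the lowest leads was not tested.

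The joints of IGHV11 cannot be compared like for like, since IGHV11-2 had 1 clonotype in the B6 library and IGHV11-1 had none in the iB-μMT library. The 3 clonotypes with most reads and a D gene in each library were, for IGHV11-2 in the iB-μMT library and IGHV11-1 in the B6 library, with the inserted nucleotides in capitals.
IGHV11-2, iB-μMT library, 195 reads: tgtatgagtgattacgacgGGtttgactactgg
IGHV11-2, iB-μMT library, 138 reads: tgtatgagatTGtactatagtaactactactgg
IGHV11-2, iB-μMT library, 130 reads: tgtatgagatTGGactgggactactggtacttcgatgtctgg
IGHV11-1, B6 library, 228 reads: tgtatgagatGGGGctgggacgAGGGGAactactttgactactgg
IGHV11-1, B6 library, 201 reads: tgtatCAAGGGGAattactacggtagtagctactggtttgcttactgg
IGHV11-1, B6 library, 106 reads: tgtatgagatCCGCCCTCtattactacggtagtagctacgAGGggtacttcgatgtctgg
The IGHV11-2 clonotypes of the iB-μMT library had 2 to 6 inserted nucleotides (mean 4.00, n = 9 with a D gene), and the IGHV11-1 clonotypes of the B6 library had 4 to 15 (mean 9.60, n = 5). These ranges belong to different genes, overlap at 4 to 6 inserted nucleotides, and were not tested. The CDR3 was 8 to 15 residues long in the former and 14 to 20 in the latter. The clonotype with most reads of the family in the iB-μMT library had 197 reads, no D gene and the shortest CDR3, 8 residues. The only IGHV11-2 clonotype of the B6 library had 135 reads, 3 inserted nucleotides and 17 residues. A CDR3 of 13 residues joined to IGHJ1 with arginine at position 3 and tyrosine at position 4, a form taken from antibodies against phosphatidylcholine, was found in 0 of 10 and 0 of 6 IGHV11 clonotypes. The clonotypes with 32 and 2 reads in the iB-μMT library differed by 1 mismatch, so the smaller may be a sequence error, which was not tested.

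IGHV12-3 was found in 5 clonotypes of the iB-μMT library (0.0642%, exact 95% interval 0.0208 to 0.150%) and 4 of the B6 library (0.0590%, 0.0161 to 0.151%). A CDR3 of 14 residues with glycine at position 7, counted from the first cysteine to the closing tryptophan, corresponds to 10/G4. It was found in 3 of the 4 clonotypes without a stop codon in the iB-μMT library and in 2 of the 3 in the B6 library. They are shown with the seventh codon in capitals, since it is this codon that encodes the glycine.
IGHV12-3, iB-μMT library, 132 reads, IGHD2-3 and IGHJ2: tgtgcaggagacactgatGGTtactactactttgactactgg
IGHV12-3, iB-μMT library, 100 reads, IGHD3-1 and IGHJ1: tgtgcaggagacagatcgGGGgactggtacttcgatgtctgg
IGHV12-3, iB-μMT library, 61 reads, IGHD2-8 and IGHJ4: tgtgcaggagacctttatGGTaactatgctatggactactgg
IGHV12-3, B6 library, 351 reads, IGHD2-8 and IGHJ2: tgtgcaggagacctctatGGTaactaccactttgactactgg
IGHV12-3, B6 library, 171 reads, IGHD2-3 and IGHJ1: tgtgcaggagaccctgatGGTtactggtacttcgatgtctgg
No 2 of these sequences were the same, and they used 3 D genes and 3 J genes. In 4 of the 5 the glycine codon was GGT within the bases of an IGHD2 gene, whereas in the clonotype with 100 reads it was GGG. The remaining clonotypes without a stop codon had 15 residues (iB-μMT library, 126 reads, also with glycine at position 7) and 17 residues (B6 library, 133 reads). The same length and glycine occurred in 3.14% of the 7737 clonotypes of all other families without a stop codon in the iB-μMT library (243 clonotypes), and in 2.60% of 6628 in the B6 library (172 clonotypes). The exact 95% interval was 19.4 to 99.4% for 3 of 4 and 9.43 to 99.2% for 2 of 3, above the share of the other families in each mouse. This comparison rests on 4 and 3 clonotypes and was not tested. The 10/G4 form is thus described here in 5 clonotypes only, from cells gated as follicular and not as B-1. In both mice, the remaining IGHV12-3 clonotype had a stop codon (145 reads in the iB-μMT library and 1 read in the B6 library).

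In all 9 IGHV12-3 clonotypes the V end was complete. The next base was G in 5 of 5 clonotypes of the iB-μMT library and 3 of 4 of the B6 library, the second base was A in 4 of 5 and 4 of 4, and the third was C in all 9. Likewise, the base after a complete IGHV4-1 end was C in 38 of 51 and 25 of 33 clonotypes, and that after IGHV13-2 was T in 16 of 26 and 5 of 13. These bases were counted as inserted. Whether some of them belong to the V genes beyond the end that MiXCR uses was not tested, because no V sequence was used here. Inserted nucleotides at the V–D joint are therefore compared between the libraries and not between genes.

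The rearrangement typical of T15 antibodies, IGHV7-1 with IGHD1-1 and IGHJ1 and a CDR3 of 16 residues, was found in 0 of 32 and 0 of 9 IGHV7-1 clonotypes. IGHV7-1 was joined to IGHD1-1 and IGHJ1 in 2 clonotypes of the iB-μMT library and 1 of the B6 library. The largest IGHV7-1 clonotype of the iB-μMT library was of this kind, with 275 reads, 17 residues and no inserted nucleotide. That of the B6 library had 312 reads, IGHD2-4, IGHJ3 and 4 inserted nucleotides. Of the IGHV7-1 clonotypes with a D gene, 8 of 27 in the iB-μMT library had no inserted nucleotide (29.6%, exact 95% interval 13.8 to 50.2%), against 0 of 7 in the B6 library (0.00%, 0.00 to 41.0%). The clonotype with 275 reads and the 3 of the 8 in which MiXCR also gave no palindromic base are shown with the bases assigned to D in capitals, followed by the largest of the B6 library.
IGHV7-1, iB-μMT library, 275 reads, IGHD1-1 and IGHJ1: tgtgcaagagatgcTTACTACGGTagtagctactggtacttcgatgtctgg
IGHV7-1, iB-μMT library, 93 reads, IGHD1-1 and IGHJ4: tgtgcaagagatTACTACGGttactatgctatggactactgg
IGHV7-1, iB-μMT library, 92 reads, IGHD2-4 and IGHJ4: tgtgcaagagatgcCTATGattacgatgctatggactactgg
IGHV7-1, iB-μMT library, 21 reads, IGHD2-4 and IGHJ4: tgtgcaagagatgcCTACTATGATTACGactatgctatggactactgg
IGHV7-1, B6 library, 312 reads, IGHD2-4 and IGHJ3: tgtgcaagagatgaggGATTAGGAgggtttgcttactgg
In the first, MiXCR gave the 5 bases after the capitals to a palindromic extension of IGHJ1, so the end of D as shown is that of the deposited alignment. Over all IGHV7-1 clonotypes with a D gene, the mean number of inserted nucleotides was 2.22 in the iB-μMT library (SD 2.03 over 27 clonotypes) against 4.43 in the B6 library (SD 2.23 over 7).

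Of the remaining IGHV7 genes, IGHV7-4 had 4 clonotypes in the iB-μMT library, with 102, 85, 52 and 36 reads, and 6 in the B6 library, with 3 to 210 reads (median 96). The share of the B6 library was the higher, but the difference of -0.0372 points had an interval that included 0 (-0.146 to 0.0566). Its clonotypes had 0 to 2 inserted nucleotides in the iB-μMT library and 3 to 11 in the B6 library, and these small groups did not overlap. In IGHV4-1, IGHV7-1, IGHV7-3, IGHV11-2, IGHV12-3 and IGHV13-2 the ranges of the 2 libraries did overlap. The mean of all other families was also lower in the iB-μMT library (4.34 and 6.38). The difference in IGHV7-4 was not tested. The share of all IGHV genes whose ranges do not overlap is not given here, so nothing is read from the lack of overlap. The CDR3 was 12 to 15 residues long in the former and 14 to 20 in the latter. The largest of each library are shown with the inserted nucleotides in capitals.
IGHV7-4, iB-μMT library, 102 reads, IGHD2-3 and IGHJ4: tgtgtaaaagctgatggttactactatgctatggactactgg
IGHV7-4, B6 library, 210 reads, IGHD1-1 and IGHJ4: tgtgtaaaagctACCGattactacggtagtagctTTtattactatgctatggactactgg
A pair of IGHV7-4 clonotypes in the B6 library, with 71 and 6 reads, shared the same 9 bases inserted between V and D. They may not be independent, which was not tested. IGHV7-2 was seen in 1 clonotype of the B6 library, with 1 read and a V alignment score of 65.0, so nothing can be said of its level.

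**Figure D2:**
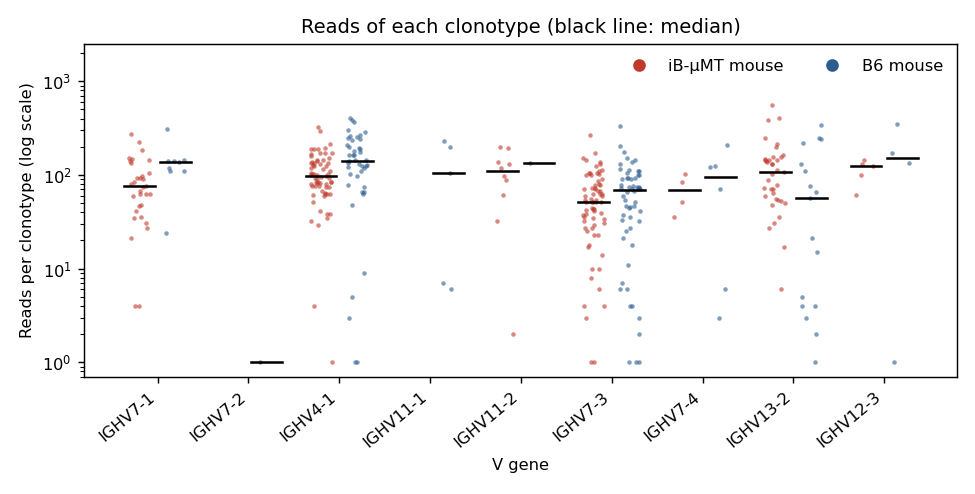
Reads of each clonotype (log scale) by V gene in the iB-μMT library (red) and the B6 library (blue). Each point is a clonotype and the black line is the median, which for IGHV7-3 was 52 and 68.5 reads and for IGHV4-1 was 97 and 142.5 reads.

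Member clonotypes had a lower median of reads than the other IgH clonotypes. Their median was 80 reads per clonotype in the iB-μMT library and 92 in the B6 library, against 97 and 187 for the other IgH clonotypes. In the iB-μMT library only IGHV7 (59.5 reads) lay below 97, whereas IGHV4 had 97, IGHV13 108, IGHV11 109 and IGHV12 126. In the B6 library all 5 families lay below 187. Low medians were not particular to the members, since IGHV5 had 62 and 88, IGHV6 72 and 115.5, and IGHV10 82.5 and 134. The largest member clonotype held 561 reads in the iB-μMT library (IGHV13-2, IGHD2-3 and IGHJ3) and 403 in the B6 library (IGHV4-1 and IGHJ1, with no D gene), or 2.67% and 2.58% of the reads of all members. IGHV7-3 had few reads per clonotype in both mice, with medians of 52 and 68.5. Among genes with 20 clonotypes or more in a library, only 1 of 71 in the iB-μMT library and 2 of 65 in the B6 library had a lower median. IGHV4-1, with medians of 97 and 142.5, had 19 and 13 genes below it. In IGHV13-2 the medians ran the other way, 108 reads in the iB-μMT library and 57 in the B6 library. Clonotypes with fewer than 5 reads made up 4.44% of the members in the iB-μMT library (10 of 225) and 12.4% in the B6 library (18 of 145), and among IGHV13-2 they numbered 0 of 37 and 5 of 17. Whether amplification, expression per cell or cell number sets these reads cannot be told apart.

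The largest clonotypes of the 3 frequent genes IGHV4-1, IGHV7-3 and IGHV13-2 are shown with the inserted nucleotides in capitals. Those without a D gene have no capitals, because their joints could not be divided.
IGHV4-1, iB-μMT library, 328 reads, IGHD2-3 and IGHJ3: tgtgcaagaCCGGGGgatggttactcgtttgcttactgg
IGHV4-1, B6 library, 403 reads, no D gene, IGHJ1: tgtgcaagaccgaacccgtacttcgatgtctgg
IGHV7-3, iB-μMT library, 269 reads, no D gene, IGHJ4: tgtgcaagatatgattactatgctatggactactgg
IGHV7-3, B6 library, 330 reads, IGHD1-1 and IGHJ3: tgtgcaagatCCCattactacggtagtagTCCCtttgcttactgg
IGHV13-2, iB-μMT library, 561 reads, IGHD2-3 and IGHJ3: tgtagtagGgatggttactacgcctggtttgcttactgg
IGHV13-2, B6 library, 341 reads, IGHD4-1 and IGHJ2: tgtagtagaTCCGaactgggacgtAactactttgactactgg
In each gene, the largest clonotype of the iB-μMT library had no nucleotide inserted between D and J or no D gene at all. The IGHV4-1 clonotype of the B6 library had no D gene either. Among all members of the iB-μMT library with a D gene, 56.9% had no nucleotide inserted between D and J, so these clonotypes do not stand out. Clonotypes without a D gene made up 37 of 225 members in the iB-μMT library (16.4%) and 13 of 145 in the B6 library (8.97%), and 12.8% and 12.4% of the other clonotypes. For IGHV7-3 they numbered 18 of 70 and 6 of 58.

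Across the members with a D gene, fewer nucleotides had been inserted in the iB-μMT library. The mean was 3.64 in the iB-μMT library (SD 2.77, n = 188 clonotypes) and 5.80 in the B6 library (SD 3.63, n = 132), a difference of -2.15. The mean at the V–D joint was 2.53 and 3.78, and that at the D–J joint was 1.12 and 2.02, respectively. The difference was close to that of the other families, -2.04 (4.34 and 6.38). No nucleotide was inserted between D and J in 56.9% of the members of the iB-μMT library (107 of 188, exact 95% interval 49.5 to 64.1%) and in 34.8% of the B6 library (46 of 132, 26.8 to 43.6%), against 54.0% and 28.7% of the other clonotypes. Members without any inserted nucleotide made up 11.2% in the iB-μMT library (21 of 188, 7.05 to 16.6%) and 2.27% in the B6 library (3 of 132, 0.471 to 6.50%). The difference was 8.90 points (95% interval 3.27 to 14.4; two-sided Fisher's exact test, p = 0.00232), and the shares of the other families were 8.70% and 2.80%. Without IGHV7-1 the members' difference was 5.67 points (13 of 161 and 3 of 125; two-sided Fisher's exact test, p = 0.0411).

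The deposited ends of D and J can include bases that mirror the end of the gene, read here from end values above 0, and these palindromic bases do not count as inserted. They were given in 52.7% of the members of the iB-μMT library and 55.3% of the B6 library. When their end values were summed with the inserted nucleotides, the means were 5.89 and 8.23. These end values reached 19 and 27 in single members, and they can exceed the number of bases assigned to D. The 2 means are therefore not counts of bases in the joints. Members with neither an inserted nor a palindromic base in the deposited alignment were 7 of 188 (3.72%) and 1 of 132 (0.758%). Their difference of 2.97 points did not pass the threshold (two-sided Fisher's exact test, p = 0.147). Bases that read on from D can be given to a palindromic extension of J, as in the IGHV7-1 clonotype with 275 reads. This count can therefore leave out members whose joints hold no added base, and how many was not tested. The members of the iB-μMT library with neither kind of base were 3 of IGHV7-1, 3 of IGHV13-2 and 1 of IGHV7-3, and that of the B6 library was of IGHV13-2.

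**Figure D3:**
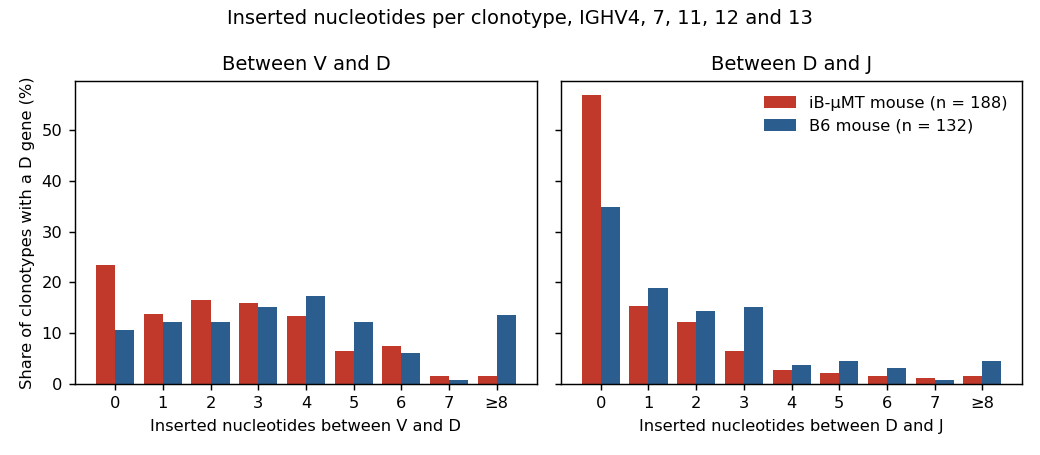
Share (%) of the clonotypes with a D gene by the number of inserted nucleotides at the V–D joint (left) and at the D–J joint (right), for the IGHV4, 7, 11, 12 and 13 families in the iB-μMT library (red, n = 188) and the B6 library (blue, n = 132). The bar at 0 is higher in the iB-μMT library at both joints, 23.4% against 10.6% between V and D and 56.9% against 34.8% between D and J.

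The genes did not all show the difference in the mean number of inserted nucleotides. In IGHV4-1 the mean number of inserted nucleotides was 4.30 (SD 2.98) in the iB-μMT library and 5.93 (SD 3.54) in the B6 library, and in IGHV7-3 it was 3.71 (SD 2.92) and 5.87 (SD 3.55). In IGHV13-2, in contrast, the means were 3.52 (SD 2.66 over 31 clonotypes) and 3.54 (SD 3.26 over 13). At its D–J joint alone, however, no nucleotide was inserted in 19 of 31 (61.3%) and 5 of 13 (38.5%) clonotypes. This share was higher in the iB-μMT library, as in all members together, although the mean at that joint was 1.26 and 1.08. A lack of inserted nucleotides was seen in 5 of 60 and 0 of 43 IGHV4-1 clonotypes, 3 of 52 and 1 of 52 of IGHV7-3, and 3 of 31 and 2 of 13 of IGHV13-2. The 2 of IGHV13-2 in the B6 library (111 and 5 reads) differed by 1 mismatch. The smaller may thus be a sequence error, which was not tested. Whether the genes differ from each other in this respect was not tested.

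The CDR3 of the members was 13.9 residues long on average in the iB-μMT library (SD 2.12, range 8 to 19) and 14.6 in the B6 library (SD 2.54, range 8 to 22). The difference of -0.723 residues compares with -0.353 for the other families. It was seen in IGHV7-3 (14.03 and 14.93 residues) and IGHV4-1 (14.01 and 14.45), while IGHV7-1 (14.6 and 14.2) and IGHV13-2 (13.1 and 12.6) were longer on average in the iB-μMT library. The SD gives the spread of single clonotypes and not the error of a mean, and the differences in length were not tested.

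**Figure D4:**
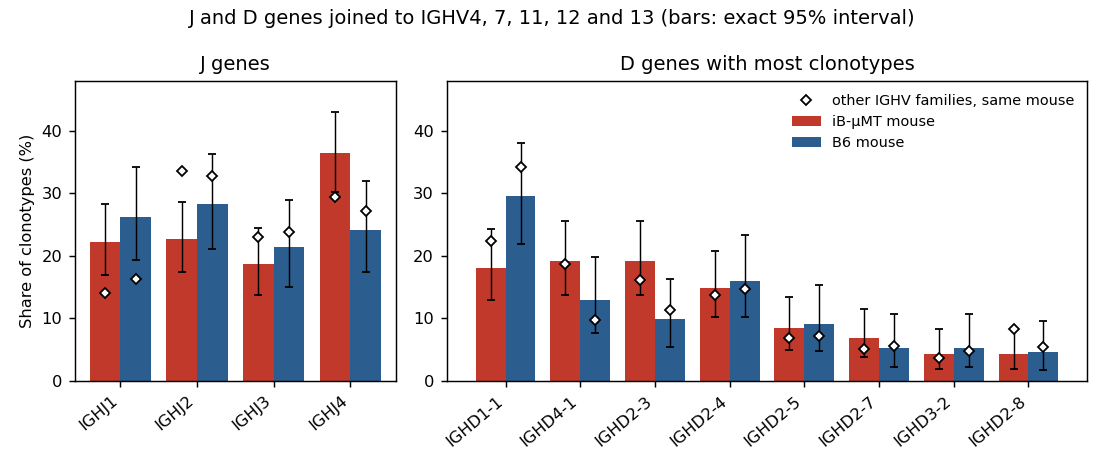
Share (%) of clonotypes joined to each J gene (left) and, among clonotypes with a D gene, to each of the 8 most frequent D genes (right), for the IGHV4, 7, 11, 12 and 13 families in the iB-μMT library (red) and the B6 library (blue), with exact 95% intervals. White diamonds give the share in the other IGHV families of the same mouse, which for IGHJ1 lies below the bar and its interval in both mice.

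The members were joined to IGHJ4 more often in the iB-μMT library, but not beyond the threshold after adjustment. IGHJ4 was found in 82 of 225 members of the iB-μMT library (36.4%) and 35 of 145 of the B6 library (24.1%), a difference of 12.3 points (2.64 to 21.3; two-sided Fisher's exact test, p = 0.0160, adjusted over the 4 J genes p = 0.0640). The adjusted p was 0.0480 with at least 5 reads and 0.0460 without the clonotype found in both mice. The other IgH clonotypes had IGHJ4 in 29.5% and 27.1%. Within genes, IGHJ4 was found in 13 of 37 and 1 of 17 IGHV13-2 clonotypes, 24 of 67 and 10 of 44 of IGHV4-1, 30 of 70 and 18 of 58 of IGHV7-3, and 12 of 32 and 3 of 9 of IGHV7-1. IGHJ1 had 22.2% and 26.2% of the members, IGHJ2 22.7% and 28.3%, and IGHJ3 18.7% and 21.4%, each with an adjusted p over the threshold (0.512, 0.512 and 0.593).
IGHJ1, the J segment nearest to D, was the one in which the members stood above the other families in both mice, which had it in 13.99% and 16.3% of clonotypes. The exact 95% intervals of the members (16.97 to 28.2% and 19.3 to 34.2%) lay above these values. This comparison was made after the values were seen and was not tested. IGHJ1 was found in 18 of 67 and 14 of 44 IGHV4-1 clonotypes, 10 of 32 and 2 of 9 of IGHV7-1, 9 of 37 and 3 of 17 of IGHV13-2, and 8 of 70 and 14 of 58 of IGHV7-3, so that IGHV7-3 in the iB-μMT library did not share the pattern.

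IGHD1-1 had most member clonotypes over both libraries together and in the B6 library, though not in the iB-μMT library. It was found in 34 of the 188 clonotypes of the iB-μMT library that had a D gene (18.1%), and in 39 of 132 of the B6 library (29.5%). IGHD4-1, the D gene nearest to the J segments, was found in 36 (19.1%) and 17 (12.9%), and IGHD2-3 in 36 (19.1%) and 13 (9.85%). These shares moved as in the other families, which had 22.4% and 34.2% for IGHD1-1, 18.7% and 9.70% for IGHD4-1, and 16.1% and 11.3% for IGHD2-3. D genes were not tested. In 21.3% and 18.9% of the members with a D gene, the best hit was tied with another D gene, and among those with a unique best hit the differences were -14.2 points for IGHD1-1, 8.02 for IGHD4-1 and 11.3 for IGHD2-3.

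Each member with a C gene had IGHM, 221 of 225 in the iB-μMT library and 139 of 145 in the B6 library. The other 4 and 6 members had no C gene assigned. Neither IGHD nor a class-switched C gene was found. The primers for the constant region are not given in the sources used here. Whether the libraries could hold other C genes was not tested, so their absence cannot be set against the sort for IgD++ cells. A stop codon within CDR3 was found in 2 members of the iB-μMT library (0.889%, exact 95% interval 0.108 to 3.17%) and 6 of the B6 library (4.14%, 1.53 to 8.79%). The difference of -3.25 points did not pass the threshold (two-sided Fisher's exact test, p = 0.0610), and it was 0.181 points, in the other direction, when clonotypes were weighted by reads. The 2 in the iB-μMT library were IGHV12-3 and IGHV13-2 (145 and 79 reads). In the B6 library they were IGHV7-1 (118 reads), 2 of IGHV11-1 (7 and 6 reads), 2 of IGHV4-1 (5 reads and 1 read) and IGHV12-3 (1 read).

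Few IgH clonotypes were found in both mice, and this held for the members too. Of the 34 IgH clonotypes with the same CDR3, V gene and J gene in both mice, 1 was a member, which is 0.444% of the members of the iB-μMT library beside 0.436% of all its IgH clonotypes, and 0.690% beside 0.501% in the B6 library. It is shown with the inserted nucleotides in capitals.
IGHV4-1, IGHD4-1 and IGHJ4, 102 reads in the iB-μMT library and 1 read in the B6 library: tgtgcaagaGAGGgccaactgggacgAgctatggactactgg
With 1 read in the B6 library and 5 inserted nucleotides, its presence in the second library rests on that read, and carry-over between libraries was not tested. With at least 5 reads required in both mice, none was shared. Within a library, the same amino acid CDR3 was encoded by 2 nucleotide clonotypes in 2 cases, both in the iB-μMT library. They were IGHV4-1 with IGHJ4 (99 and 4 reads) and IGHV7-1 with IGHJ4 (98 and 92 reads). The IGHV4-1 clonotypes differ by 1 mismatch, so that the smaller may be a sequence error, which was not tested, and merging near-identical clonotypes left 1 case. The IGHV7-1 clonotypes differ in 2 codons.
IGHV7-1, 98 reads: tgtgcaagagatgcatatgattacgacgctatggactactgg
IGHV7-1, 92 reads: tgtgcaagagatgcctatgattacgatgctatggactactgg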

How the data were processed

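IgH transcripts of sorted FO B cells were amplified from total RNA by 5′ RACE (SMARTer kit), and NEBNext libraries were sequenced on a MiSeq. The authors assembled clonotypes with MiXCR (version 3.0.13), and deposited for each clonotype a count of reads without normalization, its CDR3, its gene hits with scores and the ends of the segments. The submitters' processing notes name bcl2fastq and mm10. The 4 light chain tables of the series were not used.

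Members and gene lists were chosen with earlier results of these data known. The best hit was used for each gene, and all clonotypes were kept. Totals were 909806 and 1383617 reads, and 3 clonotypes correspond to 0.0385% and 0.0442% of the clonotypes. Inserted nucleotides were those between the reported V, D and J ends. Shares have exact (Clopper-Pearson) 95% intervals, differences of shares have Newcombe 95% intervals, and numbers of clonotypes were tested with a two-sided Fisher's exact test. V genes with at least 20 clonotypes were adjusted together by Benjamini-Hochberg at 0.05. The procedure was tested on simulated data. V genes were placed with the RefSeq table of GRCm38.p6, in which all 105 matched. Named results were each member V gene and J gene, the 3 D genes with most member clonotypes (IGHD2-3 was taken over IGHD2-4, with which it tied at 49), the largest clonotype per gene and library, shared clonotypes and repeated CDR3. Other sequences were chosen after their values were seen.

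Alternatives were at least 2 or 5 reads, equal read numbers, merged near-identical clonotypes (1 mismatch and 10 times the reads), a unique best V hit, productive clonotypes, amino acid clonotypes, weighting by reads, no shared clonotypes, every V gene tested and at least 8 nucleotides of D. The denominator outside IGHV1, IGHV2 and IGHV5, the omission of IGHV7-1, a unique best D hit, and the count of palindromic bases and of bases recurring after the V end were added after seeing the data. The tools were SciPy 1.17.1, pandas 2.3.3, NumPy 2.4.6 and Matplotlib 3.10.9, under Python 3.11.15.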

Additional observations from a re-analysis of the deposited data

How the results depend on the processing

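No paired analysis was possible because there was 1 library per group and the labels give no shared replicate numbers, and no replicate could be left out. The share of the 5 families together kept its direction under every alternative (0.478 to 1.18 points), but missed the threshold without IGHV7-1 (0.478 points, p = 0.0573) and outside IGHV1, IGHV2 and IGHV5 (1.17 points, p = 0.205; Fisher's exact test, two-sided). With that denominator 1 of the 22 IGHV genes left to test was called, against 7 of the same 22 in the main test, and the differences of IGHV12 (-0.0190 points) and IGHV7-3 (-0.381 points) turned in direction. The difference in clonotypes without inserted nucleotides ranged from 2.97 to 11.5 points and missed the threshold when palindromic bases were counted (2.97 points). That alternative can count bases of D as added. For the mean of inserted nucleotides, the difference was between -2.32 and -1.95. The sum with palindromic end values gave -2.33, but it is not a count of bases. The stop codon difference turned when weighted by reads (0.181 points), as did that of IGHJ3 after merging (0.177 points). IGHJ4 passed the threshold with at least 5 reads (13.1 points) and without the shared clonotype (12.5 points). With at least 5 reads in both mice, 0 member clonotypes were shared in place of 1. IGHV13 as a family passed the threshold of the same exact test with at least 2 reads (adjusted p = 0.0469), at least 5 reads (0.00573) and after merging (0.0374). The counts of 10/G4 clonotypes, 3 and 2, did not move. The cause of these changes was not tested. Genes with fewer than 20 clonotypes, IGHV11 and IGHV12 among them, are limited by their number. Merging near-identical clonotypes removed 2 and 11 member clonotypes.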
